A study of Homo sapiens with 24 samples.

Results

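The integrated stress response, with the serine pathway and the cytosolic tRNA synthetases that it regulates, was described through 36 genes in human embryonic stem cells. The genes were taken by name, from a list proposed with earlier results of these data known. Every probe set annotated to exactly 1 of the 36 symbols was read. Of the 36 genes, 35 had at least 1 such probe set, 66 probe sets in all, among 19775 genes on the array. The methionyl-tRNA synthetase gene MARS1 shared its only rows with another gene and is not analysed here. Values are log2 signals after robust multi-array averaging (RMA), so a difference of 1 is a 2-fold change.

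RNA was measured on 24 arrays in 8 groups of 3, to ask how feeder cells, factors that feeders secrete and a block of lactate transport alter pluripotent cells. The first 12 arrays held 3 lines, H1, H9 and HSF1 (a cell line here, not the heat shock factor), with 1 array per line and condition. Each line was feeder-supported, on mouse embryonic fibroblasts, or feeder-free, and received DMSO or 250 nM AZD3965, an inhibitor of the monocarboxylate transporter MCT1, for 5 days. The other 12 arrays held feeder-free H9 and HSF1 cells, 3 biological replicates a group, whose medium either was unconditioned or had first been kept on mouse embryonic fibroblasts (conditioned medium). How long cells were in conditioned medium is uncertain, being 5 days in the labels and 24 hours in the design text. No array had both feeders and conditioned medium, and the medium groups hold no H1 cells.

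In the integrated stress response, kinases that sense amino acid shortage, unfolded protein, heme deficit or double-stranded RNA phosphorylate the initiation factor eIF2. General translation then falls, while the mRNA of the transcription factor ATF4 is translated more. ATF4 is therefore regulated in large part after transcription, and its targets are read as its output at the RNA level. Those targets include the enzymes that make asparagine and serine, the mitochondrial folate cycle, many cytosolic aminoacyl-tRNA synthetases, amino acid transporters, and the factors DDIT3 (CHOP), ATF3 and TRIB3. Serine made from a glycolytic intermediate feeds glycine, cysteine and one-carbon units, a route of interest in cells with high glycolysis.

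ATF4 and its partners bind an element with the letters TGATGNAA, the C/EBP-ATF response element. Promoter sequences came from RefSeq (GRCh38.p14), in which 30 of the 36 genes matched, with 48 annotated start sites. The 250 bases before each start site held the element on either strand in 8 of these 30 genes. Over the table, 3.89% of 27305 genes held it. The 8 genes were ATF3, CEBPG, CHAC1, ASNS, MTHFD1L, AARS1, GARS1 and IARS1. The palindrome TGACGTCA, the cyclic AMP response element, was found in PPP1R15A alone among the 30, and in 2.03% of genes. The letters of the 2 motifs do not overlap in these windows. A match is a description of the letters and shows no binding. The stretches below belong to 5 genes named in the results, with the element in capitals and the strand of the gene read 5′ to 3′.
ASNS, chr7:97872439-97872506, minus strand: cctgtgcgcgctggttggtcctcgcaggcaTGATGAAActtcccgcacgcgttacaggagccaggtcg
AARS1, chr16:70289656-70289723, minus strand: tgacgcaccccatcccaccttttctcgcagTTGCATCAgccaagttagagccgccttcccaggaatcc
ATF3, chr1:212565186-212565253, plus strand: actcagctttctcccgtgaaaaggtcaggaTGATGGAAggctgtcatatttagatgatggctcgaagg
GARS1, chr7:30594815-30594877, plus strand: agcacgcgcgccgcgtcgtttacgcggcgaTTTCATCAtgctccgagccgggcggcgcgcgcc
IARS1, chr9:92293698-92293740, minus strand: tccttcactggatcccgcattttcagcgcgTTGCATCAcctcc
Counted from the start site, the first base of the element lay at -68 in ASNS, -187 in AARS1, -191 in ATF3, -33 in GARS1 and -13 in IARS1. In AARS1, GARS1 and IARS1 it lay on the opposite strand, so the printed letters are its reverse complement.

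All arrays carried the signals of pluripotent cells: the median of 10 pluripotency markers lay between 12.05 and 12.77 on each array. Both feeder-supported HSF1 arrays stood apart from the rest. They correlated at 0.986 with each other and at 0.860 to 0.961 with the remaining 22 arrays, which reached 0.948 to 0.998 among themselves. Their spread was narrower, with an interquartile range of 2.45 where the 22 had 2.66 to 3.30. Their 3-prime minus 5-prime difference in actin beta (ACTB) probe sets, a sign of RNA quality, was -0.31 and -0.15, against 0.44 to 3.25 elsewhere. In unconditioned H9 cells that difference was 1.07 on replicate 1 and 3.25 and 2.89 on replicates 2 and 3. The feeder calls are given with and without the HSF1 arrays, and their part in the differences was not tested otherwise.

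Feeder-supported cells had less RNA of several enzymes that make amino acids and more of the stress factors DDIT3 and NUPR1 than feeder-free cells. With DMSO, 2 of the 35 genes rose and 5 fell, which is 5.71% and 14.3%, where 15.2% of all 17218 genes tested rose and 24.1% fell. The share of these genes that changed was thus below that of all genes in either direction. Genes that fell were CBS, PHGDH, ALDH18A1, PSPH and ATF4. The median difference over the 35 genes was -0.24, against -0.19 over all genes tested. Quantile normalization moved the median of all genes to 0.04 and that of the 35 genes to 0.05, and the share of all calls that were higher from 38.7% to 50.6%. After it 3 of the 35 genes were called higher and 3 lower, against 1586 and 1547 of 17041 genes tested, 18.4% in all. PHGDH, CBS and ALDH18A1 were still called lower, and DDIT3 and NUPR1 were among those called higher. With the ACTB difference of each array, described above, as a covariate, all 7 calls of the main fit were lost. DDIT4 alone was then called, higher by 1.65 (limma adjusted p = 0.0439), while 2.04% of all genes were called. The median of the 35 genes was then 0.19. The 7 differences kept their sign under it, for example -0.80 for CBS (limma adjusted p = 0.135) and 1.06 for DDIT3 (limma adjusted p = 0.0956). With the inhibitor on both sides the covariate left 0 calls among the 35 genes and 4.35% of all genes. With the MCT1 inhibitor present on both sides, 1 gene rose (NUPR1) and 9 fell, 2.86% and 25.7%, against 19.3% and 27.8% of all genes. NUPR1, CBS, PHGDH and ALDH18A1 passed the test in both treatments. Fewer cells of a type and less RNA per cell cannot be told apart in these bulk samples.

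PHGDH, the first enzyme of serine synthesis from 3-phosphoglycerate, fell in each line. With DMSO it read 11.66, 11.82 and 11.68 in feeder-free H1, H9 and HSF1 cells and 11.18, 11.12 and 10.71 on feeders. Each feeder-supported value lay below each feeder-free value, a difference of -0.72 (SE 0.19, 1.64-fold, limma adjusted p = 0.0184). With the inhibitor it read 11.68, 11.88 and 11.74 without feeders and 11.13, 11.31 and 10.40 on them, a difference of -0.82 (SE 0.19, adjusted p = 0.0104 in limma). PSAT1, the next enzyme, did not pass: it read 12.80, 12.92 and 13.06 without feeders and 12.91, 12.90 and 12.68 on them, with DMSO. Its difference was -0.10 with a 95% interval from -0.45 to 0.26. PSAT1 was higher on feeders in H1 and lower in HSF1.

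CBS, which condenses homocysteine with serine on the way to cysteine, had the smallest p of the 35 genes in both treatments. With DMSO it read 11.26, 11.71 and 10.75 in feeder-free H1, H9 and HSF1 cells and 10.57, 10.38 and 9.67 on feeders. The groups did not overlap, and the difference was -1.03 (SE 0.20, limma adjusted p = 0.00633). With the inhibitor it fell by 0.97 on the log2 scale (SE 0.20, limma adjusted p = 0.00673). ALDH18A1, which makes the pyrroline precursor of proline, read 10.61, 10.40 and 10.76 without feeders and 10.04, 9.71 and 9.20 on them with DMSO. It fell by 0.94 with DMSO (SE 0.29, limma adjusted p = 0.0275) and by 0.99 with the inhibitor (SE 0.29, limma adjusted p = 0.0201). The differences of ALDH18A1 with DMSO were -0.57 in H1, -0.69 in H9 and -1.56 in HSF1.

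CTH, which releases cysteine from cystathionine, and PYCR1, which makes proline, passed over all arrays with the inhibitor and not with DMSO, a difference between treatments that was not past its own test. CTH read 9.82, 9.88 and 10.33 without feeders and 9.29, 9.45 and 7.87 on them, a difference of -1.14 (SE 0.43, limma adjusted p = 0.0469). Most of this lay in HSF1, and without the feeder-supported HSF1 arrays the difference was -0.39 (limma adjusted p = 0.0934). PYCR1 read 9.58, 9.91 and 9.53 without feeders and 9.11, 9.15 and 8.83 on them (difference -0.64, SE 0.21, limma adjusted p = 0.0305). ASNS, which makes asparagine, read 11.69, 11.91 and 12.18 without feeders and 11.98, 11.76 and 11.33 on them with DMSO, and the groups overlapped. Its interval ran from -0.84 to 0.36. By the mean of the 3 lines, all 8 amino acid enzymes lay below 0 on feeders in both treatments. With DMSO 4 were called lower and with the inhibitor 5, against 24.1% and 27.8% of all genes. In H1, H9 and HSF1 apart, 6, 7 and 8 of the 8 lay below 0 in either treatment. After quantile normalization of the arrays 4 of the 8 lay below 0 with DMSO and 8 with the inhibitor, so the sign of ASNS, PSAT1, CTH and PYCR1 with DMSO depends on the scaling.

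The transcription factors did not move together. DDIT3, a factor of prolonged stress, read 7.18, 6.79 and 7.26 in feeder-free H1, H9 and HSF1 cells with DMSO and 7.70, 8.09 and 7.75 on feeders. The groups did not overlap, and the rise was 0.77 (SE 0.23, 1.70-fold, limma adjusted p = 0.0259). With the inhibitor DDIT3 differed by 0.53 with an adjusted p of 0.0727 in limma. NUPR1, a small chromatin-bound stress protein, read 5.83, 6.23 and 6.29 without feeders and 6.47, 6.95 and 7.23 on them, a rise of 0.77 (SE 0.18, limma adjusted p = 0.0132). With the inhibitor the rise of NUPR1 was 0.53 (SE 0.18, limma adjusted p = 0.0354), and these signals are low on the scale. ATF4 read 12.96, 12.79 and 12.90 without feeders and 12.80, 12.41 and 12.09 on them with DMSO. Its fall of 0.45 (SE 0.17, limma adjusted p = 0.0496) lay at the threshold and was lost under 8 of 13 other settings. With the inhibitor ATF4 differed by -0.29 (SE 0.17, limma adjusted p = 0.15). The other regulators, ATF3, ATF5, CEBPB, CEBPG and TRIB3, did not pass in either treatment by the probe sets that stood for them. ATF5 was higher on feeders with the inhibitor in 3 of 3 lines by that probe set (0.30), with no overlap, and its 3 other probe sets were higher too. Of these 0.59 and 0.92 passed over 42070 probe sets, with limma adjusted p of 0.0377 and 0.0117, and 0.49 did not.

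**Figure D1:**
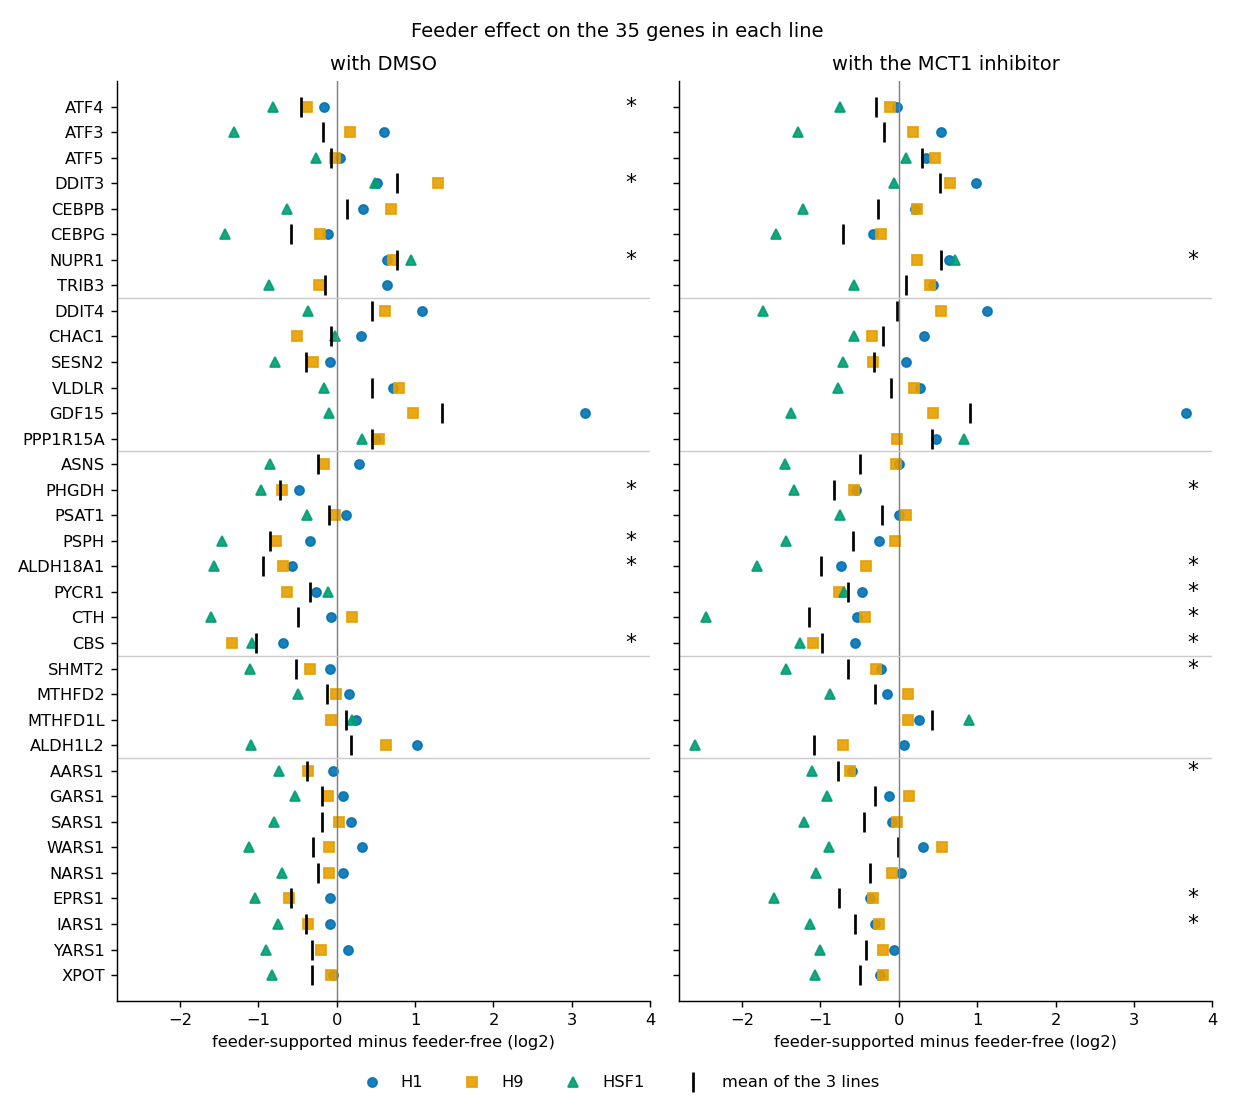
Feeder-supported minus feeder-free log2 signal of the 35 genes with DMSO (left) and with the MCT1 inhibitor (right), in H1 (circles), H9 (squares) and HSF1 (triangles). The black bar is the mean of the 3 lines, an asterisk marks a limma adjusted p under 0.05, and grey lines separate regulators, stress outputs, amino acid enzymes, one-carbon enzymes and tRNA synthetases with the exporter. HSF1 lies lowest for most genes, and GDF15 in H1 lies farthest above 0.

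The lines differed widely in size, and HSF1 carried much of the fall. With DMSO, 31 of the 35 genes were lower on feeders in HSF1, 24 in H9 and 14 in H1, against 55.5%, 57.2% and 56.3% of all genes. The median difference was -0.78 in HSF1, -0.10 in H9 and 0.12 in H1. Over all genes the medians were -0.28, -0.12 and -0.09. With the inhibitor the medians of the 35 genes were -1.06 in HSF1, -0.04 in H9 and 0.0002 in H1. The line with the lowest medians is the one whose feeder-supported arrays stood apart. Leaving out line H1 gave 1 call with DMSO, leaving out H9 gave 0, and leaving out HSF1 gave 12 calls, 7 higher and 5 lower. With the inhibitor these counts were 0, 0 and 10. The shares of all genes called were 5.97%, 2.11% and 37.9% with DMSO, and 4.6%, 18.3% and 38.9% with the inhibitor.

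Without both feeder-supported HSF1 arrays, more of the genes passed the test, and in both directions. With DMSO 8 rose and 9 fell, 16.2% and 32.7% being the shares of all genes. CBS, PHGDH, ALDH18A1, PSPH, ATF4, NUPR1 and DDIT3 were all called in the same direction as before. Those added on the higher side were ATF3 (0.42), CEBPB (0.49), DDIT4 (0.87), VLDLR (0.78), GDF15 (2.28) and PPP1R15A (0.51). Those added on the lower side were PYCR1 (-0.47), EPRS1 (-0.34), IARS1 (-0.22) and SHMT2 (-0.22). The 6 added on the higher side are stress factors and outputs, and the 4 on the lower side are enzymes, while the stress factor ATF4 fell. The share of these genes that rose was above that of all genes and the share that fell was below it. Neither was tested. With the inhibitor 4 rose and 9 fell, against 16.6% and 30.7% of all genes, and those that rose were ATF5 (0.37), DDIT3 (0.79), DDIT4 (0.82) and WARS1 (0.45). Of the 10 genes called with all arrays, 8 were called again: CBS (-0.85), PHGDH (-0.56), ALDH18A1 (-0.55), PYCR1 (-0.59), AARS1 (-0.61), EPRS1 (-0.36), IARS1 (-0.28) and SHMT2 (-0.25). CTH (-0.39, limma adjusted p = 0.0934) and NUPR1 (0.45, limma adjusted p = 0.0676) were not, and XPOT (-0.20) was added.

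The stress outputs gave wide intervals across 3 lines. GDF15, a secreted stress hormone, was high in feeder-supported H1 cells alone: 10.38 with DMSO and 10.66 with the inhibitor, against 7.21 and 6.9966 in feeder-free H1 cells. In H9 and HSF1 it lay between 6.29 and 8.67 under all 4 conditions. Its feeder difference with DMSO was 1.35 with an interval from -0.35 to 3.04. VLDLR, a lipoprotein receptor, was higher on feeders by 0.72 in H1 and 0.79 in H9 and lower by 0.16 in HSF1. DDIT4, an inhibitor of mTORC1, was higher by 1.09 in H1 and 0.62 in H9 and differed by -0.37 in HSF1. PPP1R15A (GADD34), which directs dephosphorylation of eIF2, was higher in the 3 lines with DMSO, by 0.50, 0.53 and 0.32, and did not pass (adjusted p = 0.0868 in limma). SESN2 and CHAC1 did not pass, and their differences were -0.39 and -0.07.

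By the mean of the 3 lines, all 9 tRNA genes measured lay below 0 on feeders in both treatments. With DMSO 0 were called and with the inhibitor 3, where 24.1% and 27.8% of all genes were called lower. In H1, H9 and HSF1 apart, 4, 8 and 9 of the 9 lay below 0 with DMSO, and 7, 7 and 9 with the inhibitor. The shares of all genes below 0 were 56.3%, 57.2% and 55.5% with DMSO, and 55.1%, 57.9% and 55.6% with the inhibitor. With DMSO, 2 of these 9, EPRS1 and IARS1, had an unadjusted p under 0.05. After quantile normalization 5 and 8 of the 9 lay below 0. AARS1, the alanyl-tRNA synthetase, read 11.49, 11.57 and 11.51 without feeders and 10.89, 10.95 and 10.40 on them with the inhibitor. The groups were clearly apart, and the fall was 0.78 (SE 0.19, 1.72-fold, limma adjusted p = 0.0118). IARS1 fell by 0.56 (SE 0.18, limma adjusted p = 0.0273), from 12.79, 12.81 and 12.92 to 12.49, 12.55 and 11.78. EPRS1, the glutamyl-prolyl-tRNA synthetase, fell by 0.76 (SE 0.26, limma adjusted p = 0.0355). WARS1, the tryptophanyl-tRNA synthetase, which interferon also induces, read 10.90, 11.08 and 10.86 without feeders and 11.22, 10.98 and 9.74 on them with DMSO. WARS1 did not pass, with an interval from -0.96 to 0.36, and its difference was 0.32 in H1, -0.10 in H9 and -1.12 in HSF1. The 4 mitochondrial one-carbon enzymes gave 1 call, a fall of SHMT2 by 0.65 with the inhibitor (SE 0.25, limma adjusted p = 0.0485). SHMT2 converts serine to glycine in mitochondria.

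Related gene lists were called lower on feeders in shares to be read against 24.1% of all genes. With DMSO 7 of 15 mitochondrial tRNA synthetases fell (46.7%) and 0 rose, as did 5 (50%) and 0 of 10 other cytosolic synthetases and scaffold proteins. Of 17 other folate and one-carbon enzymes 9 fell (52.9%) and 1 rose, and of 12 other non-essential amino acid enzymes 5 fell (41.7%). Of 15 genes for the eIF2 kinases, eIF2, eIF2B and its phosphatase, 4 fell, 26.7% and near the share of all genes, among them EIF2AK1, the heme-regulated kinase, by 1.23 (SE 0.31, limma adjusted p = 0.015). Of 14 other stress response genes, 1 rose (ADM2, 0.68) and 1 fell (NFIL3, -0.97). Fibroblast markers rose on feeders in 10 of 25 cases and fell in 0, with TWIST1 higher by 3.74 and IGFBP7 by 2.96, and with the inhibitor 8 rose and 3 fell. Their summed linear signal was 11752 to 30250 on feeders with DMSO, and 8583 to 17146 without. Of 10 pluripotency markers 5 fell. The part of feeder cell RNA in the results above was not tested.

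MCT1 inhibition changed none of the 35 genes by the test, with or without feeders. Without feeders 0 genes passed, where 0.842% of all genes did, and 4 had an unadjusted p under 0.05, 11.4% against 7.74% of all genes tested. VLDLR read 8.62, 8.05 and 8.31 with DMSO and 9.13, 8.80 and 9.09 with the inhibitor in H1, H9 and HSF1, a difference of 0.68 (SE 0.26, limma adjusted p = 0.462). AARS1 read 11.05, 11.04 and 11.03 with DMSO and 11.49, 11.57 and 11.51 with the inhibitor. That is a difference of 0.49 (SE 0.19, limma adjusted p = 0.466), and the 3 lines nearly coincided. ATF5, a relative of ATF4, read 8.38, 8.48 and 8.37 with DMSO and 7.89, 7.92 and 8.07 with the inhibitor (difference -0.45, SE 0.18, limma adjusted p = 0.531). ALDH1L2, the mitochondrial formyl-tetrahydrofolate dehydrogenase, read 6.04, 5.17 and 6.91 with DMSO and 7.13, 7.05 and 7.54 with the inhibitor. Its difference was 1.198 (SE 0.50, limma adjusted p = 0.551).

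In these 4 genes and in SARS1 the feeder-free groups did not overlap, 5 of 35 genes or 14.3%, against 22.6% of all genes tested. The fit pools the spread over all 12 arrays, so the lines' unequal response to feeders enters the error of the inhibitor effect. Without both feeder-supported HSF1 arrays VLDLR, AARS1, ALDH1L2 and CEBPB were called higher and ATF4 and ATF5 lower. In that fit 6.59% of all genes rose and 3.37% fell, so 4 and 2 of 35 genes, 11.4% and 5.71%, are to be read against those shares. The differences themselves did not move, at 0.68 for VLDLR, 0.49 for AARS1, 1.198 for ALDH1L2 and -0.45 for ATF5, since no feeder-free array was removed.

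The core of the response stayed within its error without feeders. ATF4 read 12.96, 12.79 and 12.90 with DMSO and 12.82, 12.60 and 12.56 with the inhibitor, lower in 3 of 3 lines by a mean of 0.22 (interval -0.59 to 0.14). DDIT3 read 7.01, 7.19 and 7.56 with the inhibitor, with an interval of the difference from -0.33 to 0.67. ASNS read 11.92, 11.9956 and 12.31 with the inhibitor, a difference of 0.15 (interval -0.46 to 0.75). The interval was -0.37 to 0.46 for PHGDH and -0.34 to 0.37 for PSAT1. WARS1 read 10.95, 10.66 and 10.57, and its interval ran from -0.88 to 0.44.

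**Figure D2:**
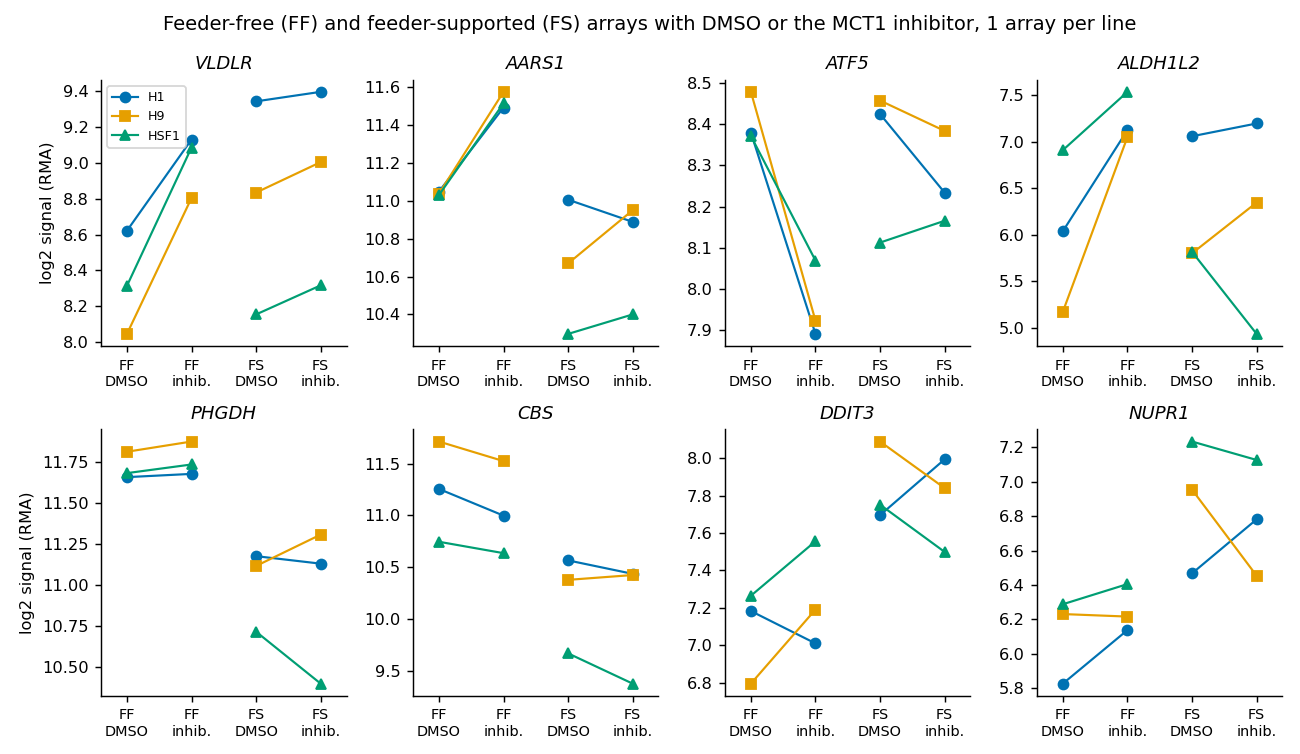
Log2 signals of 8 genes on the 12 arrays with DMSO or the MCT1 inhibitor, without feeders (FF, left pair) and on feeders (FS, right pair); each line joins the 2 arrays of 1 cell line. Without feeders the inhibitor arrays of VLDLR, AARS1 and ALDH1L2 lie above and those of ATF5 below the DMSO arrays in each line, none past the test; on feeders PHGDH and CBS lie below and DDIT3 and NUPR1 above the feeder-free DMSO values.

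On feeders the inhibitor gave 0 calls among the 35 genes, 0 at an unadjusted p under 0.05, and 0.00581% of all genes were called. The smallest p belonged to MTHFD1L (0.30), XPOT (-0.26) and PSPH (0.29). MTHFD1L, the mitochondrial formyl-tetrahydrofolate synthetase, read 5.08, 4.99 and 5.33 with DMSO and 5.05, 5.16 and 6.09 with the inhibitor. XPOT read 11.69, 11.65 and 11.05 against 11.47, 11.44 and 10.68, lower in 3 of 3 lines. PSPH read 10.08, 7.33 and 9.11 against 10.31, 7.79 and 9.29, higher in 3 of 3 lines, and the groups of all 3 genes overlapped. With the inhibitor on feeders AARS1 differed by 0.09, VLDLR by 0.13, ALDH1L2 by -0.07 and ATF5 by -0.07, and the signs differed between lines for AARS1, ALDH1L2 and ATF5. A difference in inhibitor effect between the culture systems was tested directly and called for 0 of the 35 genes, against 0.0174% of all genes. The inhibitor effects in H1, H9 and HSF1 on feeders had medians of -0.03, 0.12 and -0.27 over the 35 genes. Over all genes the medians were 0.01, 0.06 and -0.01. Each effect is 1 array minus 1 array, so a direction of a line cannot be told from the spread between arrays.

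Conditioned medium lowered part of the amino acid response in both lines and raised DDIT4 and VLDLR. In H9, 3 of the 35 genes rose and 11 fell, 8.57% and 31.4%, against 3.45% and 13.0% of 16572 genes tested. In HSF1, 2 rose and 11 fell, 5.71% and 31.4%, against 8.57% and 9.78% of all genes. The share that fell was above that of all genes in both lines, and no test of the list as a whole was made. In H9 its size depended on the probe sets used. With the mean of all probe sets 4 of 33 genes tested fell in H9, against 1436 of 15696 of all genes. In HSF1 7 of the 33 fell under that setting, against 1427 of all genes. DDIT4 and VLDLR rose in both lines, and ALDH1L2, ASNS, CEBPB, CTH and GDF15 fell in both. Of these, ALDH1L2 lay near or under the filter, and a second GDF15 probe set did not follow, as given below. No gene was called in opposite directions, and 25 of the 35 differences had the same sign in both lines. That share over all genes is not given here. The 2 lines were fitted with a shared error but have no array in common.

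DDIT4, induced by energy stress, hypoxia and glucocorticoids as well as by ATF4, had the smallest p in either line. In H9 it read 10.05, 10.07 and 10.31 in unconditioned and 10.60, 10.74 and 10.84 in conditioned medium, a rise of 0.58 (SE 0.09, limma adjusted p = 0.000252). In HSF1 it read 10.65, 10.90 and 10.77 against 11.45, 11.57 and 11.55, a rise of 0.75 (SE 0.09, 1.69-fold, limma adjusted p = 1.22e-05). The groups did not overlap in either line, and HSF1 started at about the level that H9 reached. VLDLR read 8.10, 8.22 and 8.40 against 8.70, 8.74 and 8.62 in H9, a rise of 0.44 (SE 0.09, limma adjusted p = 0.00237). In HSF1 VLDLR read 7.86, 7.90 and 8.0008 against 8.56, 8.69 and 8.4962, a rise of 0.66 (SE 0.09, limma adjusted p = 4.67e-05). Both genes were called under all 21 other settings in either line.

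ALDH1L2 was called lower in both lines at signals near or under the filter of log2 5. In HSF1 it read 5.58, 5.62 and 5.79 in unconditioned and 4.29, 4.57 and 4.84 in conditioned medium, a difference of -1.09 (SE 0.15, limma adjusted p = 8.48e-05). In H9 it read 5.44, 5.65 and 5.58 against 4.78, 5.35 and 4.95, a difference of -0.53 (SE 0.15, limma adjusted p = 0.0269). All 3 conditioned HSF1 values and 2 of 3 in H9 lie under the filter, which the gene passed through its other arrays, so the sizes of these differences are uncertain. GDF15 read 7.59, 7.25 and 7.48 against 6.69, 6.78 and 6.93 in H9 (difference -0.64, SE 0.12, limma adjusted p = 0.00249). In HSF1 it read 7.79, 7.66 and 7.87 against 7.31, 7.60 and 7.05 (difference -0.45, SE 0.12, limma adjusted p = 0.0181). A second GDF15 probe set did not follow: it differed by 0.19 in H9 and 0.13 in HSF1.

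ASNS, CTH and CEBPB fell by small and similar amounts in the lines. ASNS read 11.85, 12.09 and 11.92 in unconditioned H9 cells and 11.72, 11.57 and 11.54 in conditioned medium (difference -0.34, SE 0.07, limma adjusted p = 0.00344). In HSF1 ASNS read 11.42, 11.37 and 11.31 against 11.12, 11.16 and 11.06 (difference -0.25, SE 0.07, limma adjusted p = 0.0181). No conditioned value reached an unconditioned value of the same line. CTH fell by 0.27 in H9 and by 0.29 in HSF1, with limma adjusted p of 0.0182 and 0.011. CEBPB, a partner of ATF4, fell by 0.22 in H9 and by 0.32 in HSF1, with limma adjusted p of 0.0218 and 0.00194. In HSF1 CEBPB read 10.25, 10.26 and 10.28 against 9.91, 9.92 and 10.02.

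**Figure D3:**
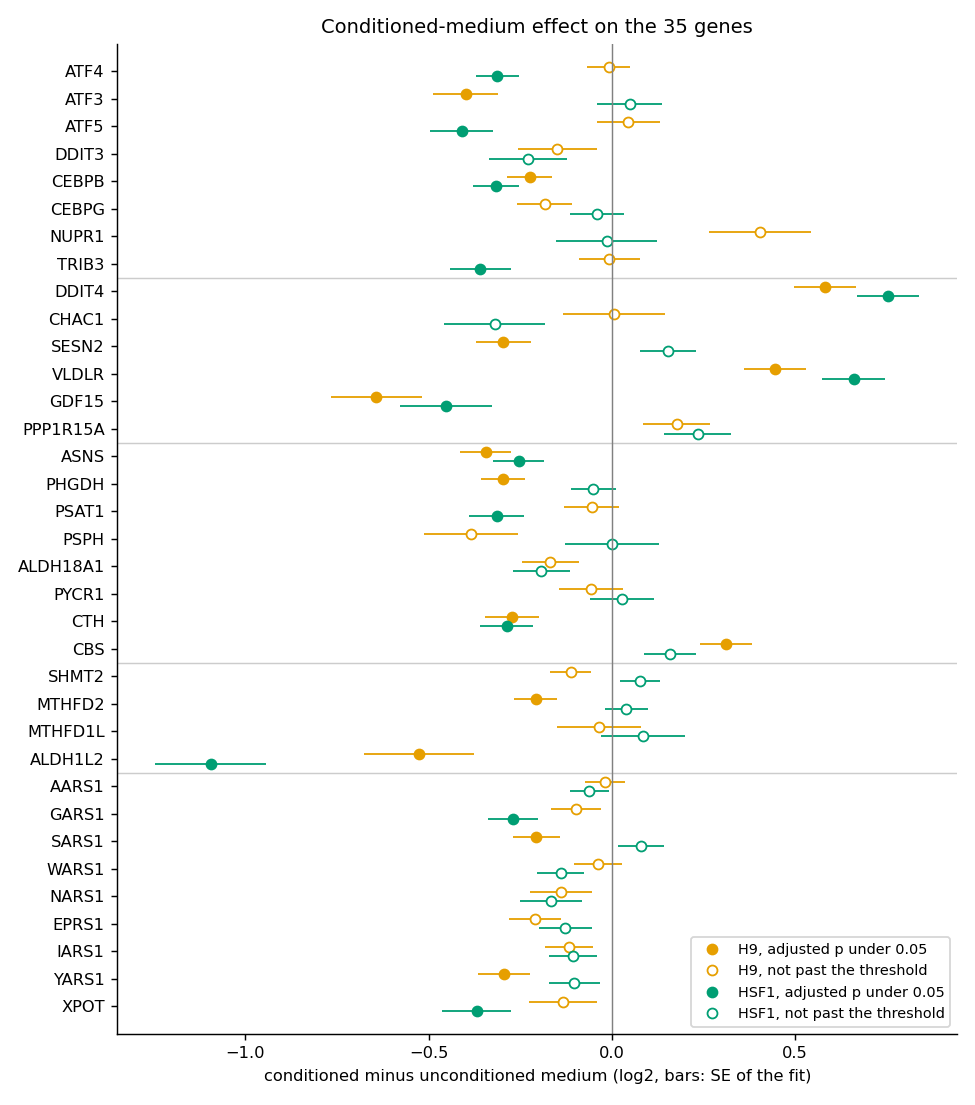
Conditioned minus unconditioned medium, log2, for the 35 genes in H9 (orange) and HSF1 (green); bars are the standard error of the fit and filled points have a limma adjusted p under 0.05. DDIT4 and VLDLR lie above 0 and ALDH1L2, GDF15, ASNS, CTH and CEBPB below 0 in both lines, while ATF4, ATF5, ATF3 and SESN2 differ between the lines.

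Of the serine enzymes, PHGDH was called in H9 and PSAT1 in HSF1, and neither was shown to differ between the lines. PHGDH fell in H9 from 11.61, 11.69 and 11.78 to 11.34, 11.42 and 11.43 (difference -0.30, SE 0.06, limma adjusted p = 0.00373). In HSF1 it read 11.40, 11.45 and 11.45 against 11.30, 11.46 and 11.38 and did not pass (interval -0.18 to 0.08). PSAT1 fell in HSF1 from 12.16, 12.19 and 12.21 to 11.87, 11.82 and 11.92 (difference -0.31, SE 0.08, limma adjusted p = 0.0079). In H9 PSAT1 read 12.39, 12.66 and 12.38 against 12.50, 12.47 and 12.29 (interval -0.21 to 0.10). The difference between the lines was not past the threshold for either gene, with limma adjusted p of 0.0903 for PHGDH and 0.143 for PSAT1. CBS rose in H9 by 0.31 (SE 0.07, limma adjusted p = 0.00782), and its values did not overlap in HSF1 either, where the difference was 0.16 (limma adjusted p = 0.142).

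The effect of conditioned medium differed between the lines in 4 of the 35 genes: the regulators ATF4, ATF5 and ATF3 (3 of 8 regulators) and the stress output SESN2. Of these 2 were positive and 2 negative, H9 minus HSF1, which is 5.71% each against 2.08% and 5.65% of all genes, so the negative share is that of all genes. ATF4 read 12.61, 12.38 and 12.47 against 12.51, 12.44 and 12.48 in H9, a difference of -0.01 (interval -0.13 to 0.12). In HSF1 ATF4 read 12.55, 12.51 and 12.57 against 12.26, 12.26 and 12.16, a fall of 0.31 (SE 0.06, limma adjusted p = 0.00144). ATF5 behaved likewise, with 7.96, 7.80 and 8.06 against 8.02, 7.92 and 8.02 in H9. In HSF1 ATF5 read 8.08, 8.15 and 8.28 against 7.78, 7.66 and 7.85, a fall of 0.41 (SE 0.09, limma adjusted p = 0.00323). ATF3 fell in H9, from 8.64, 8.76 and 8.87 to 8.39, 8.37 and 8.32 (difference -0.40, SE 0.09, limma adjusted p = 0.00625). In HSF1 ATF3 differed by 0.05. SESN2, a leucine-sensing inhibitor of mTORC1, fell in H9 by 0.30 (SE 0.08, limma adjusted p = 0.0147) and differed by 0.15 in HSF1. The differences between lines were 0.30 for ATF4, 0.45 for ATF5, -0.45 for ATF3 and -0.45 for SESN2, with limma adjusted p of 0.0363, 0.0327, 0.0396 and 0.0194. These differences rest on few arrays: 1 of the 35 genes was called with the ACTB difference as a covariate, and leaving out 1 array at a time gave between 0 and 7 calls. The share of all genes called was 7.73% with all arrays, 5.38% with the covariate and 3.09% to 19.8% with 1 array left out. TRIB3, a pseudokinase that restrains ATF4, fell in HSF1 by 0.36 (limma adjusted p = 0.00628). DDIT3 did not pass in either line: it read 7.21, 7.17 and 7.22 against 6.9964, 7.11 and 7.06 in H9, and 7.38, 7.43 and 7.32 against 7.07, 6.92 and 7.45 in HSF1.

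**Figure D4:**
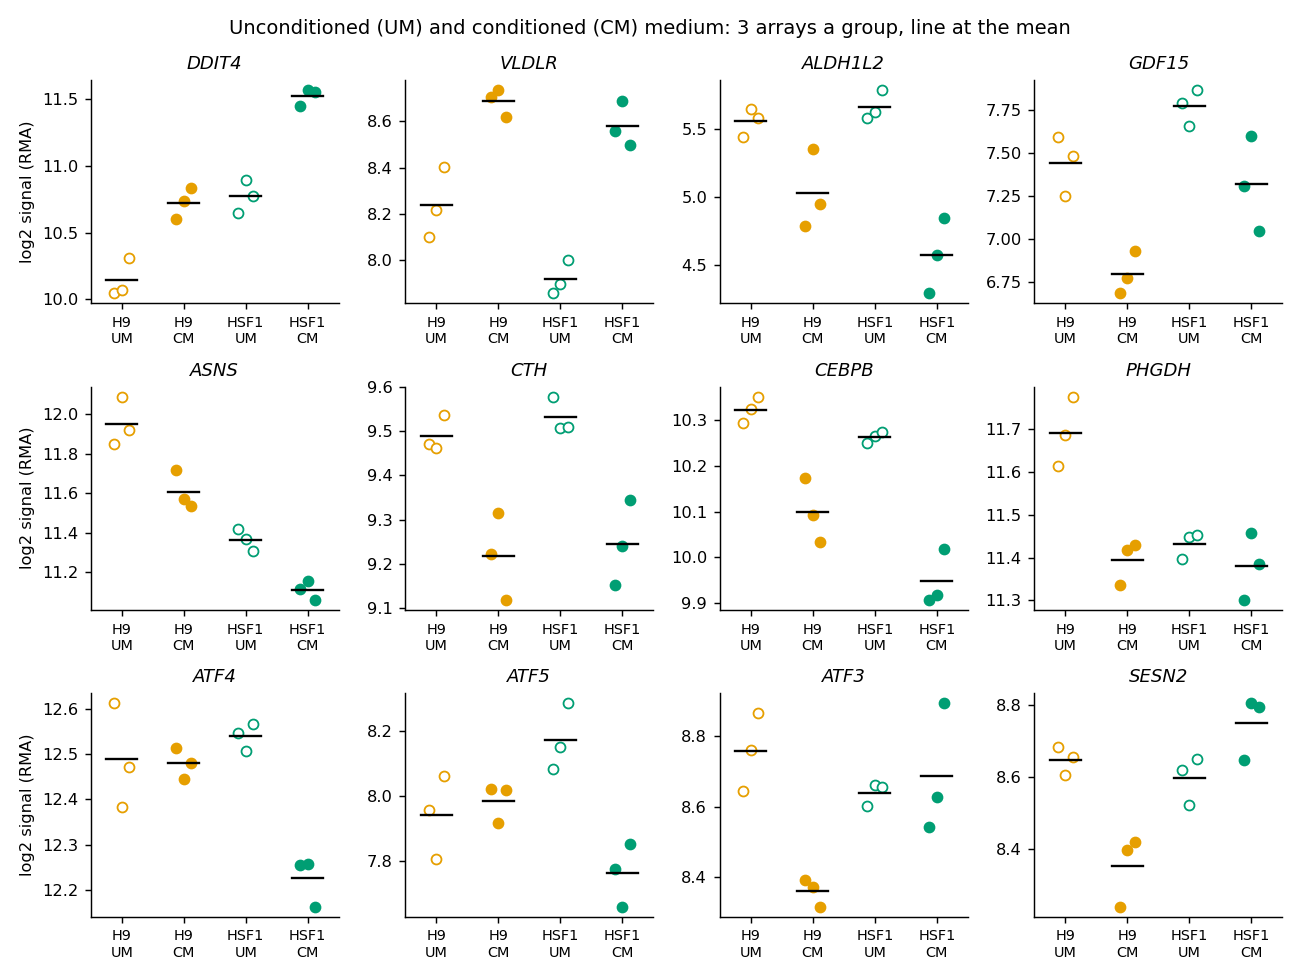
Log2 signals of 12 genes on the 12 arrays of the medium comparison: unconditioned (UM, open) and conditioned (CM, filled) medium in H9 (orange) and HSF1 (green), 3 arrays a group, with a black line at the mean. DDIT4 and VLDLR rise in both lines; ATF4 and ATF5 drop in HSF1 alone, and ATF3 and SESN2 in H9 alone.

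Of the 9 tRNA genes, the synthetases with the exporter, 2 fell in each line and 0 rose. In H9 these were YARS1 (-0.29) and SARS1 (-0.21). In HSF1 they were XPOT (-0.37), the exporter of tRNA from the nucleus and not a synthetase, and GARS1 (-0.27). The shares of all genes that fell were 13.0% in H9 and 9.78% in HSF1. The synthetases AARS1, WARS1, NARS1, EPRS1 and IARS1 were not called in either line. WARS1 read 10.45, 10.48 and 10.54 against 10.57, 10.40 and 10.39 in H9, and 10.07, 10.13 and 10.12 against 9.93, 10.0012 and 9.97 in HSF1. MTHFD2, the mitochondrial methylene-tetrahydrofolate dehydrogenase, fell in H9 by 0.21 (limma adjusted p = 0.0237) and differed by 0.04 in HSF1.

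The H9 counts changed with the covariate and with the arrays left out. Unconditioned H9 replicates 2 and 3 had the high ACTB difference, and its part in the counts was not tested. With the ACTB difference as a covariate, 3 of the 35 genes rose and 7 fell in H9, and 8.86% of all genes were called. Without unconditioned replicate 1, which has the low ACTB difference, the counts were 4 and 17, and 31.9% of all genes were called in either direction against 16.4% with all arrays. Without unconditioned replicate 2 they were 3 and 8 with 10.7% of all genes, and without unconditioned replicate 3 they were 3 and 6 with 7.98%. Without conditioned replicate 3 they were also 3 and 6, with 9.87% of all genes. CEBPB, MTHFD2, SARS1 and ALDH1L2 were lost with the covariate. DDIT4, VLDLR, CBS, PHGDH, GDF15 and ASNS were kept in H9 under it. In HSF1 leaving out unconditioned replicate 1 left 2 genes higher and 6 lower, with 11.2% of all genes called against 18.3% with all arrays.

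Related gene lists were also called in conditioned medium, to be read against the shares of all genes given above (3.45% higher and 13.0% lower in H9, 8.57% and 9.78% in HSF1). Of 14 other stress response genes 1 rose and 4 fell in H9 (28.6% lower), and 2 rose and 4 fell in HSF1 (28.6% lower). Of 15 genes of the eIF2 list 2 fell in H9 (13.3%) and 5 in HSF1 (33.3%). Of 17 other folate and one-carbon enzymes 1 rose and 5 fell in H9 (29.4% lower), and 2 fell in HSF1 (11.8%). Of 12 other non-essential amino acid enzymes 2 fell in H9 (16.7%), and 3 rose in HSF1 (25%). SQSTM1, an autophagy receptor, fell by 0.55 in H9 and by 0.56 in HSF1, with limma adjusted p of 0.00013 and 6.06e-05. STC2, a secreted stanniocalcin, fell by 0.57 in H9, and the difference between lines was called (limma adjusted p = 0.00257). SLC3A2, the heavy chain of the leucine transporter, fell in HSF1 by 0.53 (limma adjusted p = 1.7e-05), and the difference between lines was called (limma adjusted p = 0.00262). HERPUD1, a gene of the endoplasmic reticulum, fell by 0.44 in H9 and by 0.76 in HSF1, with limma adjusted p of 0.00328 and 1.66e-05. SLC7A5, the light chain of that transporter, rose in H9 by 0.54 (limma adjusted p = 0.00233). IMPACT, an inhibitor of the amino acid sensing kinase GCN2, fell by 0.31 in H9 and by 0.73 in HSF1. Of 10 other cytosolic synthetases and scaffold proteins 2 fell in either line, and of 15 mitochondrial ones 5 fell in H9. In HSF1 2 of those 15 fell and 1 rose. Fibroblast markers moved in both directions, 4 higher and 6 lower of 21 tested in H9 and 1 higher and 5 lower in HSF1. Their summed linear signal was 10901 to 11738 against 10499 to 11487 in H9, and 11504 to 12052 against 8271 to 9143 in HSF1.

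Some genes were read by several probe sets that disagreed. Of 25 calls in genes with more than 1 probe set tested, all probe sets of the gene had the same direction in 16. The other 9 were EPRS1 on feeders with the inhibitor, ATF3 and GDF15 in H9, ATF5, GDF15 and XPOT in HSF1, and ATF3, ATF5 and SESN2 in the difference between lines. For ATF3 in H9 the other probe sets differed by 0.16 and 0.25. On feeders with DMSO another ATF3 probe set rose by 0.68 and another GDF15 probe set by 0.80, with limma adjusted p of 0.0297 and 0.00949 over 42070 probe sets. PSPH, the last enzyme of serine synthesis, depended on the line instead. The probe set that stood for the gene read 6.68 to 8.10 on the 10 H9 arrays, 10.08 to 10.56 on the 4 H1 arrays and 9.11 to 10.73 on the 10 HSF1 arrays. A second probe set read 8.25 to 9.32, 9.31 to 9.62 and 7.95 to 9.92, so its lines overlapped. The gene has an annotated pseudogene, PSPHP1, on the same chromosome 7, and which transcripts each probe set reads was not tested. With DMSO the first probe set read 10.42, 8.10 and 10.58 in feeder-free H1, H9 and HSF1 cells and 10.08, 7.33 and 9.11 on feeders. It fell by 0.86 (limma adjusted p = 0.0373) and the second differed by -0.70 (limma adjusted p = 0.104 over probe sets). Values of PSPH are therefore uncertain.

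**Figure D5:**
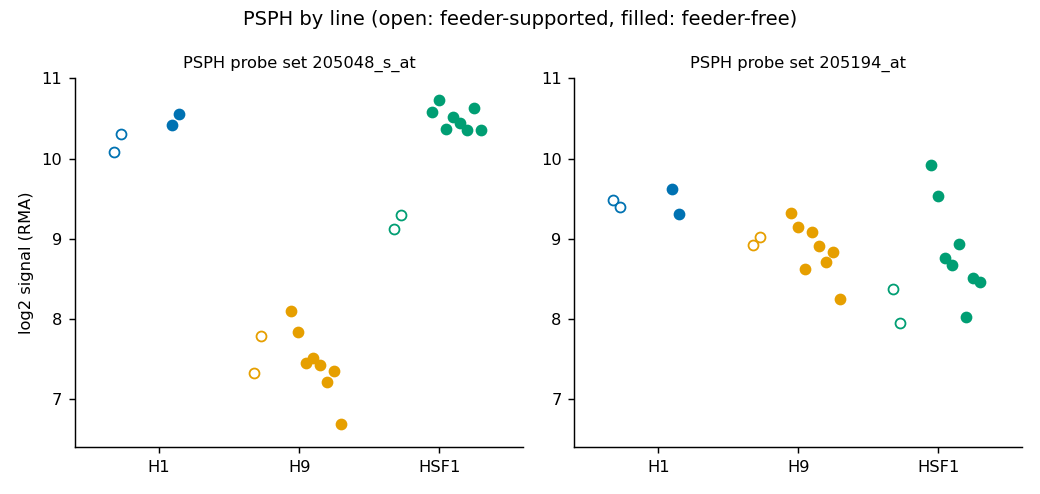
Log2 signal of 2 PSPH probe sets by cell line, with feeder-supported arrays open and feeder-free arrays filled, 1 point an array. The left probe set lies at 8.10 or lower on each H9 array and at 9.11 or higher on each H1 and HSF1 array, and the right probe set overlaps between the lines.

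The 8 genes with the response element before a start site had different calls. ASNS fell in both lines in conditioned medium, ATF3 fell in H9 and GARS1 in HSF1. AARS1 and IARS1 fell on feeders with the inhibitor and were not called in conditioned medium. CEBPG, CHAC1 and MTHFD1L were called in none of the comparisons, and MTHFD1L lay near the filter, between 4.75 and 6.09 on all arrays. PPP1R15A, with the cyclic AMP element, was called in none either. In DDIT4 and VLDLR, which rose in both lines, the element was not among the letters of the 250 bases searched. The same held for CEBPB, CTH and GDF15, which fell in both lines. ALDH1L2, which also fell in both, had no promoter sequence to search.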

How the data were processed

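Total RNA of 24 samples was hybridised to Affymetrix expression arrays. The authors deposited log2 values made by RMA, per the submitters' processing notes, whose version is not given in the sources used here. Of 54675 probe sets, 41097 named 1 gene, 1801 named several and 11777 named none. A gene was represented by its probe set with the highest mean over the 24 arrays. The feeder and medium arrays, 12 each, were fitted apart, and a gene was tested where 3 or more of the 12 exceeded log2 5, which all 35 genes did in both. The feeder and inhibitor arrays were fitted with the cell line as a block, since same-numbered arrays come from the same line, and the medium arrays without one. Tests were two-sided, with limma 3.58.1 in R 4.3.3 (lmFit and eBayes with trend) and Benjamini-Hochberg adjustment over all genes tested, at a threshold of 0.05. The code was tested on simulated data with known changes. The number of arrays, 3 a group, limits the precision, and p-values measure the spread between these samples.

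Any of the 36 genes could be named. Values by array were due for ATF4, DDIT3, ASNS, PHGDH, PSAT1 and WARS1, and in each comparison for up to 6 called genes with the smallest p, or 3 where none was called; of each related list, up to 3 called genes could be named. Values of other genes were added after they were seen. The genes and lists were chosen with earlier results of these data known. The alternatives were quantile normalization, a common median, the mean of all probe sets, other filters, no trend, array weights, the ACTB difference as a covariate, the block, and leaving out arrays.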

Additional observations from a re-analysis of the deposited data

Results flagged for a closer look

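For 4 genes the effect of conditioned medium differed between the lines by limma's test of the difference itself. The difference, H9 effect minus HSF1 effect on the log2 scale, was 0.30 for ATF4, 0.45 for ATF5, -0.45 for ATF3 and -0.45 for SESN2. ATF4 and ATF5 fell in HSF1 and not in H9, and ATF3 and SESN2 fell in H9 and not in HSF1. SESN2 was called under 15 of 21 other settings, ATF5 under 11, and ATF3 and ATF4 under 6 each. Other probe sets of ATF3, ATF5 and SESN2 did not all have the same direction.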

How the results depend on the processing

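The feeder counts moved most. With DMSO the 7 calls became 1 with the ACTB covariate, 15 with array weights, 0 with no replicate block, 17 without the feeder-supported HSF1 arrays, and 0 to 12 with 1 line left out. The main fit called 39.3% of all genes. That share became 2.04%, 60.3%, 10.7% and 48.9% in the same order, and 2.11% to 37.9% with 1 line left out. With the inhibitor the 10 calls became 0, 17 and 3 under the first 3 of these settings, and 0 to 10 with 1 line left out. The share of all genes called went from 47.1% to 4.35%, 63.6% and 19.3%, and to 4.6% to 38.9% with 1 line left out. For the inhibitor without feeders the 0 calls became 5 with array weights, 1 with quantile normalization, 6 without the feeder-supported HSF1 arrays, and 0 to 1 with 1 line left out. The share of all genes went from 0.842% to 11.4%, 0.716% and 9.96%, and to 0.0177% to 2.5% with 1 line left out. On feeders, and for the difference between culture systems, the number of calls among these genes stayed at 0 under the 13 alternatives. The share of all genes called reached 0.128% and 0.343% in these 2 comparisons, with array weights.

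In H9 the 14 calls in conditioned medium became 7 with the mean of all probe sets and 9 to 21 with 1 array left out, and in HSF1 the 13 became 8 to 15. The share of all genes called in H9 went from 16.4% to 12.7% with that mean, and to 7.98% to 31.9% with 1 array left out. In HSF1 it went from 18.3% to 11.2% to 23.5% with 1 array left out. The 4 differences between lines became 1 with the ACTB covariate, 8 with array weights, 2 with no trend, 1 with the replicate block, and 0 to 7 with 1 array left out. The share of all genes went from 7.73% to 5.38%, 16.9%, 6.09% and 4.57%, and to 3.09% to 19.8% with 1 array left out. Medium samples share only a number: same-numbered deviations correlated at -0.27, 0.13 and -0.10 in H9 and at 0.09, -0.19 and 0.01 in HSF1. The replicate block gave 12 calls in either line, with 11.7% of all genes called in H9 and 14.4% in HSF1.

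Changes of sign are listed here only where the gene was called in the main fit or under the alternative. Changes with no call in either fit were more frequent, 58 against 1 on feeders with DMSO, counted over genes and settings. That 1 was ATF3 (0.42 without the feeder-supported HSF1 arrays). On feeders with the inhibitor DDIT4 changed sign, to 0.93 with array weights and 0.82 without the feeder-supported HSF1 arrays. Without replicate 3 DDIT4 was at 0.83, in a range from -0.60 to 0.83 with 1 line left out. WARS1 did so under the same settings, to 0.37, 0.45 and 0.43, the last in a range from -0.29 to 0.43. The others were ATF3 in H9 conditioned medium (0.0031, mean of all probe sets) and EPRS1 between lines (0.85, the same setting). The cause was not tested. Quantile normalization moved the all-gene median on feeders with DMSO from -0.19 to 0.04, and the share of calls that were higher from 38.7% to 50.6%. Signals near the filter, as for MTHFD1L and ALDH1L2, limit what can be seen.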
